A study of Mus musculus with 3 samples.

Results

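Mitochondrial ribosomal protein genes were described in 5TGM1.BRE cells, a mouse multiple myeloma line. All gene symbols that begin with Mrpl or Mrps followed by a digit were taken from the deposited count tables, which gave 77 of the 24467 symbols listed. Polyadenylated RNA was sequenced from 3 samples, which form 1 group. 5TGM1 descends from a myeloma that arose spontaneously in C57Bl/KaLwRij mice. The 5TGM1.BRE line was selected for resistance to bortezomib, an inhibitor of the proteasome, and was recovered from mouse bone marrow after engraftment. Per the protocols, which are the same for all 3 samples, cells were kept in 10 nM bortezomib and had been without the drug for at least 72 h when RNA was taken from 10000000 cells each. The titles name all 3 as resistant and engraftable, and they were grouped by title, but the cell type label of replicate 1 does not mention resistance or bortezomib, unlike those of replicates 2 and 3. The sensitive parental line and the resistant line that had not been passed through mice were not analysed here, so every value is a level within resistant cells and no effect of resistance was measured. Whether the replicates were separate cultures is not stated, and the SDs below may reflect technical spread.

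Mitochondria carry their own ribosome, which translates the few messenger RNAs of the mitochondrial genome into core subunits of the respiratory chain and of ATP synthase. Its RNA is made inside the organelle, but all of its proteins are encoded in the nucleus, made in the cytosol and imported. Some have a counterpart in the bacterial ribosome, from which the mitochondrial ribosome descends, and the others are specific to mitochondria. By these roles the 77 genes comprise 30 large-subunit proteins with a bacterial counterpart, 20 large-subunit proteins specific to mitochondria, 16 small-subunit proteins with a bacterial counterpart and 10 small-subunit proteins specific to mitochondria. Mrps30 and Mrps18a are named for the small subunit but their proteins belong to the large one, and they were counted there. Mrps36 is a ribosomal protein in name only, since its product is part of the 2-oxoglutarate dehydrogenase complex of the citric acid cycle, and it was kept apart from both subunits. The genes lie on 17 chromosomes.

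The sequences given here are stretches upstream of 4 of these genes, which represent features met in the results. They are the promoter of Mrpl34, whose counts were the highest for its exon length, and that of Mrpl12, whose human protein also binds mitochondrial RNA polymerase. With the length of the main (principal) transcript Mrpl34 ranked 5 among the members, and by counts not divided by length 27. The space between the starts of Mrps12 and its opposite-strand neighbour Sars2, and the promoter of Mrps18a, are also shown. All come from RefSeq promoter windows (GRCm38.p6), are written 5′ to 3′ on the strand of the gene, and leave out bases that lie in an exon of GENCODE M21. Capitals mark the motifs that were searched. Mrpl34 lies at chr8:71464676-71464925 on the plus strand, Mrpl12 at chr11:120484387-120484612 on the plus strand, Mrps12 at chr7:28741822-28741991 on the minus strand and Mrps18a at chr17:46110754-46110985 on the plus strand.
Mrpl34: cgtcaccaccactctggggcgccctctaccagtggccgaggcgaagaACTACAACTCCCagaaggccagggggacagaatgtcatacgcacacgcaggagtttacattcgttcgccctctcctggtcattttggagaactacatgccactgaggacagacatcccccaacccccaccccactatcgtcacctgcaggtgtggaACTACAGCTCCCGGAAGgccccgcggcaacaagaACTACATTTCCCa
Mrpl12: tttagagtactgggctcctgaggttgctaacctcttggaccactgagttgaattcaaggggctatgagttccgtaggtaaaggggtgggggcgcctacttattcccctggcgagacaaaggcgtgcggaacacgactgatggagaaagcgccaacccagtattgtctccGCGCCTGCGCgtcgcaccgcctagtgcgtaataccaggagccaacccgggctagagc
Mrps12: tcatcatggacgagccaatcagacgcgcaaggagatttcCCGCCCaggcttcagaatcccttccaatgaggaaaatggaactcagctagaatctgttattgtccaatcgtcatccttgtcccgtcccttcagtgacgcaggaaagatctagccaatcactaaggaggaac
Mrps18a: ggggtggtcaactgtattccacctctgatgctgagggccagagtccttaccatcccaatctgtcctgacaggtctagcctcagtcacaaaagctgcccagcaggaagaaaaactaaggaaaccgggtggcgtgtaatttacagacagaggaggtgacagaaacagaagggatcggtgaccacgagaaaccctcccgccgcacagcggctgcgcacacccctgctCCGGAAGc
The Mrpl34 stretch holds the motif shared by Zfp143 and Thap11 at 3 places, one of which overlaps the motif CCGGAAG of the ETS family. The Mrpl12 stretch holds the motif of Nrf1, read on the other strand. In the Mrps12 stretch only the GC box of Sp1 was found, also on the other strand. The Mrps18a stretch holds CCGGAAG close to its end.

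The libraries held 62303493, 45705994 and 59402218 counts in replicates 1, 2 and 3. Plasma cell markers were abundant, with a mean of 1180 CPM (counts scaled to 1000000 per library) for Xbp1 and 539 CPM for Sdc1. None of the 17 T and NK cell, myeloid and erythroid markers reached 1 CPM, and of the 6 stromal and endothelial ones only Pecam1 did, at 5.31 CPM. Replicate 3 stood apart from the other libraries. Of 11517 genes tested by chi-square, 7144 varied over the 3 libraries, against 977 of 11138 between replicates 1 and 2 alone, at an adjusted p of 0.05. Levels are therefore given per library, and the difference of replicate 3 has its own account below.

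All 77 members were expressed, and most were well above the typical expressed gene. Each reached 1 CPM in all libraries, and each also reached 5 CPM. Together they took 0.550, 0.557 and 0.636% of the counts in replicates 1, 2 and 3 (mean 0.581% ± 0.0475, SD, n = 3). Levels between genes were compared in TPM, for which counts are divided by exon length before they are scaled to 1000000. The median member had 87.9 TPM, against 27.9 TPM for the 10100 genes with a mean of at least 1 CPM and a known length, and 70 of the 77 members lay above that median. Of the members, 49 lay in the top 25% of these genes. Mean TPM ran over 76.8-fold, but 52 members lay within 2-fold of the member median. The libraries agreed closely for each gene, with a coefficient of variation of 0.288 to 10.5% and a median of 5.06%.

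**Figure D1:**
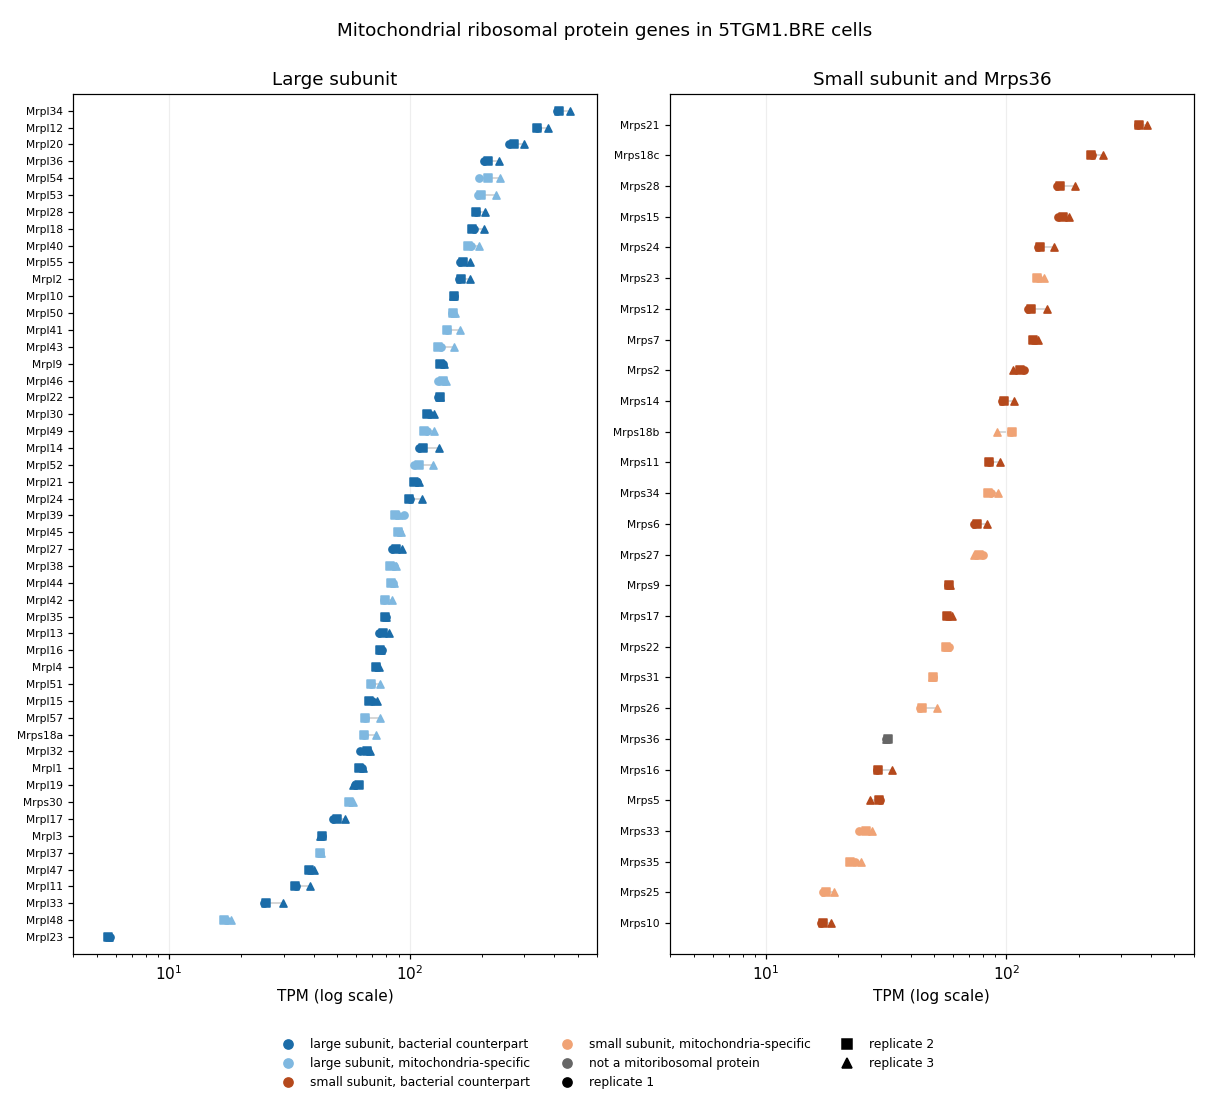
Level of each gene in TPM (log scale) in replicates 1, 2 and 3, shown by circle, square and triangle, ordered by mean within the large subunit (left) and within the small subunit with Mrps36 (right). Colours give the class. In TPM from exon length Mrpl34 leads with a mean of 431 TPM and Mrpl23 is lowest with 5.61 TPM. With the length of the principal transcript these genes rank 5 and 72. The 3 libraries of a gene lie close together.

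In TPM from exon length, the 4 most abundant large-subunit genes all encode proteins with a bacterial counterpart. Mrpl34, one of the smallest of these proteins, had 410.3, 419 and 464 TPM in replicates 1, 2 and 3. Mrpl12, which forms part of the flexible stalk where translation factors bind, had 337, 338 and 378 TPM. Mrpl20, which binds the ribosomal RNA and has a role in assembly in bacteria, had 260.3, 272 and 298 TPM. In all of these genes replicate 3 gave the highest value. Mrpl36, whose bacterial counterpart binds zinc, followed with a mean of 217 TPM ± 15.9 (SD, n = 3). Mrpl54 was the most abundant large-subunit gene specific to mitochondria by exon length, with 195, 211 and 238 TPM, the highest again in replicate 3. It was singled out after its values were seen. With the length of the principal transcript, Mrpl54 averaged 183 TPM and Mrpl52, also specific to mitochondria, 187 TPM. Mrpl42, specific to mitochondria as well, averaged 277 TPM by that length and ranked 4 among all members, ahead of Mrpl34 at 269 TPM. Mrpl20 ranked 1 by that length with 376 TPM, and Mrpl13, which has a bacterial counterpart, ranked 3 with 316 TPM. By counts not divided by length Mrpl13 was the highest member, with a mean of 198 CPM, while it ranked 45 by exon length.

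At the low end of the large subunit stood Mrpl23, with 5.66, 5.57 and 5.60 TPM. Its counts were 533, 389 and 545, and the exact 95% Poisson interval of the lowest is 351 to 430, which covers counting error only. Mrpl48 had 17.2, 16.9 and 18.1 TPM, and Mrpl33 had 24.8, 25.3 and 29.7 TPM. Mrpl11, which lies at the base of the stalk, had a mean of 35.2 TPM ± 2.98 (SD, n = 3). The order of these genes depends on the length used, because unions of exons from all transcripts can be much longer than the main one. With the length of the principal transcript Mrpl33 averaged 254 TPM and ranked 7 in place of 71, and Mrpl23 averaged 24.7 TPM and ranked 72 in place of 77. Ranks by both lengths had a Spearman correlation of 0.71 across the 77 genes, which share the same libraries and are not independent.

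In the small subunit the genes with a bacterial counterpart led in TPM from exon length. Mrps21 had 351, 356 and 386 TPM, and Mrps18c had 228, 225 and 253 TPM. Mrps28 had 162, 166 and 193 TPM, and Mrps15, which binds the small ribosomal RNA early in assembly in bacteria, had 165, 172 and 183 TPM. In each of these 4 genes replicate 3 was the highest library. With the principal transcript Mrps28 averaged 108 TPM and ranked 33 among all members. Mrps9, with a bacterial counterpart, then averaged 146 TPM. Mrps34, Mrps18b and Mrps22, specific to mitochondria, also exceeded Mrps28 by that length, with 123, 121 and 118 TPM. By exon length the low end held mostly proteins specific to mitochondria: Mrps25 averaged 18.1 TPM, Mrps35 23.5 TPM and Mrps33 26.0 TPM. Mrps10, which has a bacterial counterpart, was lowest by that length with 17.0, 17.2 and 18.6 TPM, but averaged 87.2 TPM with the principal transcript. With the principal transcript the lowest were Mrps25 at 12.2, Mrps16 at 21.3, Mrps33 at 24.4 and Mrps5 at 26.4 TPM. Of these, Mrps16 and Mrps5 have a bacterial counterpart. The exons of Mrps25 overlap those of Nr2c2 on the other strand over 69.8% of their length, and the strand setting of the count is not given in the sources used here.

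The 3 genes of the Mrps18 family encode proteins that occupy different places in the mitochondrial ribosome, of which the Mrps18c product holds the bacterial position. Mrps18c averaged 235 TPM ± 15.5, Mrps18b 101 TPM ± 7.69 and Mrps18a 67.3 TPM ± 4.62 (SD, n = 3 each). The ranges over the 3 libraries did not overlap between any of them. Their order changed with the principal transcript as length, which put Mrps18a at 175 TPM, above Mrps18b at 121 TPM and below Mrps18c at 247 TPM. Mrps30 averaged 56.8 TPM and Mrpl45, which lies at the peptide exit where the ribosome contacts the inner membrane, 90.6 TPM. Mrps36 had 31.7, 32.3 and 31.6 TPM, lower than the lowest library of either.

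By geometric mean, genes of the large subunit were slightly more abundant than those of the small subunit. The 50 large-subunit genes had a median of 90.8 TPM, against 82.4 TPM for the 26 small-subunit genes. Their geometric means differed by 0.34 ± 0.0086 on the log2 scale of TPM + 0.1 (SD, n = 3), with 0.34, 0.34 and 0.35 in replicates 1, 2 and 3. Genes with a bacterial counterpart exceeded those specific to mitochondria by 0.26 ± 0.0097 on the same scale, with medians of 102 TPM over 46 genes and 85.5 TPM over 30. The small-subunit genes specific to mitochondria were the lowest class, with a median of 53.1 TPM, against 107 TPM for small-subunit genes with a bacterial counterpart. In the large subunit the medians were 90.8 TPM for genes specific to mitochondria and 96.3 TPM for genes with a bacterial counterpart. Among genes with a bacterial counterpart the median by exon length was thus lower in the large subunit, at 96.3 TPM, than in the small subunit, at 107 TPM. With the principal transcript as length this order was reversed. The middle genes were then Mrpl24 and Mrpl22 in the large subunit, at 109 and 113 TPM. In the small subunit they were Mrps12 and Mrps2, at 96.9 and 98.7 TPM. Within each class the genes spread widely. Mean levels ran from 5.61 to 431 TPM in large-subunit genes with a bacterial counterpart and from 17.4 to 215 TPM in those specific to mitochondria. In the small subunit they ran from 17.6 to 365 TPM in genes with a bacterial counterpart and from 18.1 to 137 TPM in those specific to mitochondria. The SD covers the libraries and not the choice of genes, and no test was made.

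Mitochondrial ribosomal protein genes were lower than both the nuclear genes for respiratory subunits and the genes of the cytosolic ribosome. Beside the members' median of 87.9 TPM, 84 nuclear genes with symbols of the respiratory chain and ATP synthase had a median of 292 TPM. This list went by symbol alone. It took in Atp5s at 12.2 TPM and Atp5sl at 26.9 TPM, whose products were not checked to be subunits. Members were lower by a log2 difference of geometric means of -1.06 ± 0.045 (SD, n = 3). That difference includes 7 respiratory genes that did not reach 1 CPM, and was -1.84 when only genes at 1 CPM were taken. The 77 cytosolic ribosomal protein genes had a median of 1928 TPM, and members were lower by a log2 difference of -4.46 ± 0.048 (SD, n = 3), or 22.1-fold. No cytosolic ribosomal gene had a mean under 309 TPM, a level that only 3 members exceeded.

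Mitochondrial ribosomal proteins filed under other symbols had a median of 91.8 TPM over 6 genes, beside 87.9 TPM over the members. Aurkaip1 averaged 182 TPM, Chchd1 181 TPM and Gadd45gip1 136 TPM, while the exons of Gadd45gip1 overlap another gene over 42.0% of their length. Ict1, a peptide release factor built into the large subunit, had 47.3 TPM, Ptcd3 42.8 TPM and Dap3, a GTP-binding protein of the small subunit, 41.6 TPM. Genes for assembly and RNA modification had a median of 28.4 TPM over 25 genes. Ngrn averaged 143 TPM, the ribosome-binding factor Rbfa 141 TPM and the GTPase Noa1 81.1 TPM. Gtpbp10, which is known as a GTPase of large-subunit assembly, had 0, 1 and 0 counts.

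Translation factors and RNA-handling proteins of mitochondria had a median of 36.4 TPM over 17 genes. Slirp, which stabilizes mitochondrial messenger RNAs, averaged 153 TPM, the elongation factor Gfm1 106 TPM and the elongation factor Tsfm 81.1 TPM, while the initiation factor Mtif3 was lowest with 8.0 TPM. The 10 genes for transcription and maintenance of the mitochondrial genome had a median of 30.9 TPM. Tfam, which packages the genome and starts its transcription, averaged 111 TPM, and the helicase gene Peo1, also called Twnk, 55.9 TPM. The elongation factor gene Tefm averaged 50.2 TPM and Mterf1b 3.98 TPM. The medians of the assembly, translation and transcription lists all lay below that of the members.

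**Figure D2:**
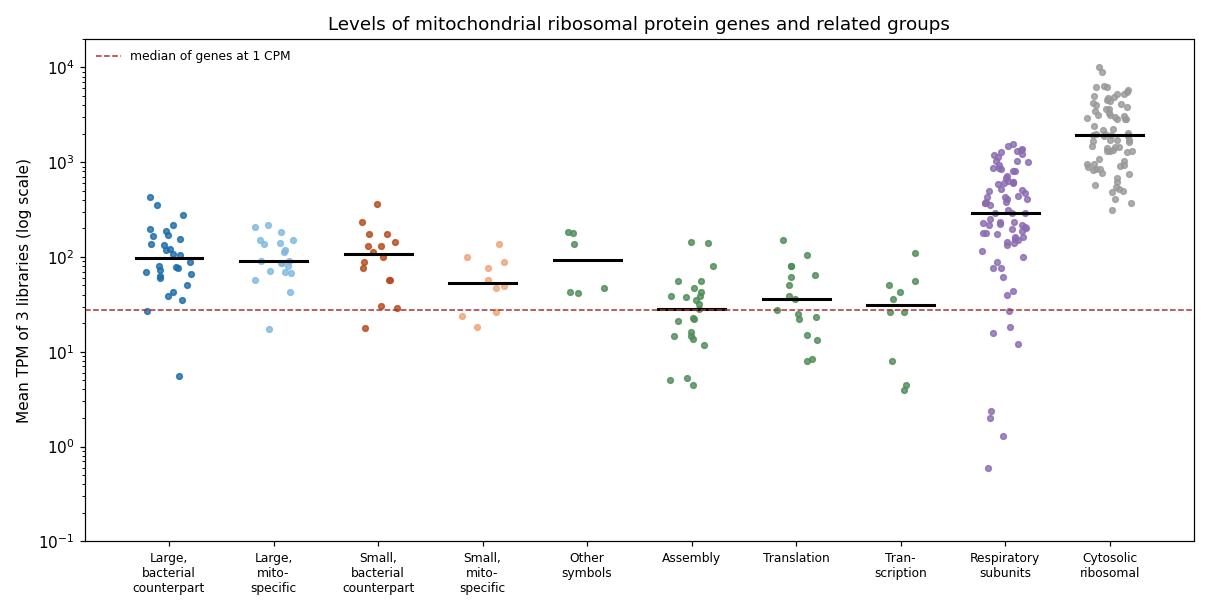
Mean TPM of the 3 libraries (log scale) for each gene of the 4 member classes, of mitochondrial ribosomal proteins under other symbols, of assembly, translation and transcription genes, of respiratory subunits and of cytosolic ribosomal proteins; black bars are medians and the dashed line is the median of expressed genes, 27.9 TPM. Points under 0.1 TPM (3 respiratory subunits and 1 assembly gene) are not drawn; the medians of the 4 member classes lie between the dashed line and the median of the respiratory subunits.

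With TMM scaling, replicate 3 had more of nearly every member than the other libraries. Its level over the mean of replicates 1 and 2, as log2 of CPM scaled by TMM (a scaling that takes most genes as unchanged), had a median of 0.25 over the 77 members and 0.00 over 10147 genes with a mean of at least 1 CPM. The difference was above 0 in 76 of 77 members, a number that was 74 with library totals as scaling, 65 in TPM, 64 after removal of a trend on coding length and 62 after removal of one on exon length. Replicate 3 was higher than both other libraries in 75 members, against 45.6% of all these genes, and lower than both in 1 member, against 45.6%. At least 1.2-fold higher were 29 members, against 12.2% of genes, and at least 1.2-fold lower were 0 members, against 14.1% of genes. In bulk RNA, fewer cells and less RNA per cell cannot be told apart, and no test of replicate 3 was made.

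Replicates 1 and 2 were close to each other, with a median absolute log2 difference of 0.03 over the members. Against the mean of its others, replicate 1 had 0 members at least 1.2-fold higher, against 3.23% of genes, and 1 at least 1.2-fold lower, against 4.83%. Replicate 2 had 0 members past either limit, against 2.22% of genes higher and 1.69% lower. By the chi-square test, 71 of 77 members varied over the 3 libraries beyond counting noise, against 62% of all genes tested. When only the 10147 genes with a mean of at least 1 CPM were tested, 71 members varied, against 69.5% of those genes. Without replicate 3 only 6 members did, against 8.77%, namely Mrpl20, Mrpl17, Mrpl54, Mrpl32, Mrpl13 and Mrpl39, which are named after their values were seen. The test takes counts as independent molecules, which copies made by PCR are not.

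**Figure D3:**
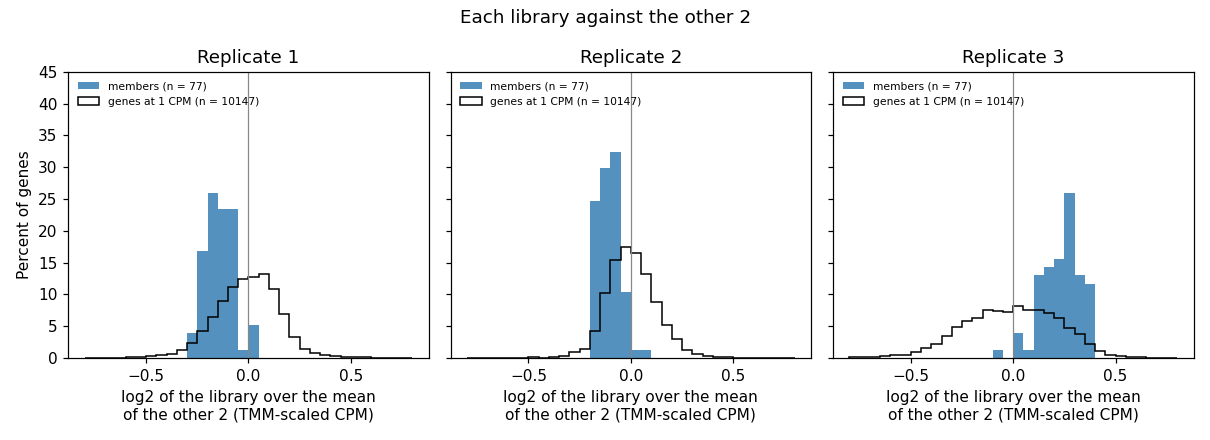
Histograms of the log2 difference of each library from the mean of the others, in TMM-scaled CPM, for the 77 members (filled) and for 10147 genes with a mean of at least 1 CPM (line), as percent of genes. The members lie to the right of 0 in replicate 3, with a median of 0.25 and 1 exception (12 in TPM), and mostly to the left in replicates 1 and 2.

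The members with the largest differences of replicate 3 came from both subunits. Mrpl14, a large-subunit protein at the face between the subunits, had 32.2, 33.6 and 42.3 CPM in replicates 1, 2 and 3, a log2 difference of 0.39. Mrpl33 had 56.3, 58.0 and 73.0 CPM (0.39), and Mrps12, which lies at the decoding centre, had 39.4, 41.2 and 51.2 CPM (0.38). Mrps28 followed with 39.3, 40.8 and 50.6 CPM (0.37). In all 4 genes replicates 1 and 2 were close and replicate 3 stood above both. At the other end, Mrps18b had 67.5, 69.1 and 64.2 CPM, a log2 difference of -0.06. With TMM scaling it was the only member below 0, and 30.5% of its exon length overlaps an antisense gene. Mrps5 had 0.01, Mrps2 0.02 and Mrps27, a pentatricopeptide repeat protein, 0.04, and none of these 4 genes varied over the libraries by the chi-square test (adjusted p = 0.133, 0.977, 0.509 and 0.400). Mrpl23 and Mrps36 did not pass that test either.

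By class, 11 of 30 large-subunit genes with a bacterial counterpart and 8 of 20 specific to mitochondria were at least 1.2-fold higher in replicate 3. In the small subunit it was 8 of 16 with a bacterial counterpart and 2 of 10 specific to mitochondria. Over all genes with a mean of at least 1 CPM the share was 12.2%. The class medians were 0.24, 0.24, 0.28 and 0.24, so that no class lay at 0. In 18 members over 10% of the exon length overlaps another gene, which makes their counts uncertain. Without them the median was 0.25 and 20 of 59 members were at least 1.2-fold higher, against 12.2% of genes.

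Related genes were higher in replicate 3 as well by their medians. The median was 0.32 over the 77 respiratory subunits at 1 CPM and 0.32 over the cytosolic ribosomal proteins. In each list 56 of 77 were at least 1.2-fold higher, against 12.2% of genes. Over the 6 mitochondrial ribosomal proteins under other symbols the median was 0.28. Of these 6 genes 3 were at least 1.2-fold higher, against the same 12.2%. Among them 1, Ptcd3 at -0.32, was at least 1.2-fold lower, against 14.1% of genes. Over assembly genes at 1 CPM the median was 0.15, over translation genes 0.06 and over transcription genes 0.14. Coding length moved with this difference. Members had a median coding length of 576 bases, against 1354.5 bases (median) in genes at 1 CPM. The latter median counts genes without a coding sequence as 0 bases, which lowers it. A coding length was known for 9739 of the 10100 genes with an exon length. The 27 members with a coding length of up to 500 bases had a median of 0.30, and all genes of that length 0.27. Over 500 and up to 1000 bases the median was 0.23 over 39 members and 0.15 over all genes, and over 1000 and up to 2000 bases 0.13 over 11 members and 0.00 over all genes. No member was longer than 2000 bases, where the median of all genes was -0.20. After a trend on coding length was removed, the members' median was 0.07 and 0 members were at least 1.2-fold higher, against 3.92% of genes. On the TPM scale, where the median of all genes moves to -0.14, the members' median was 0.11 with 65 above 0, and the gap between both medians was 0.25. The part of coding length in the difference was not tested.

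**Figure D4:**
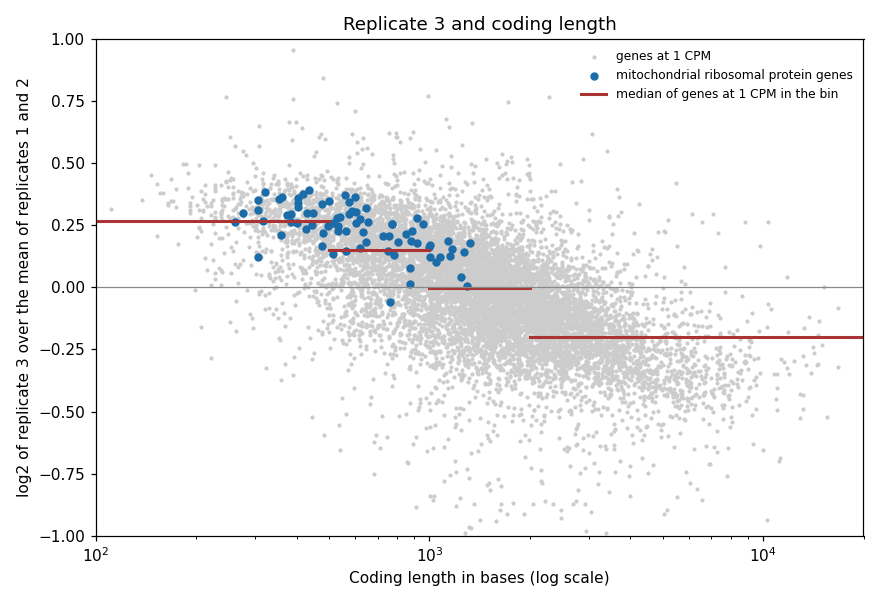
Log2 of replicate 3 over the mean of replicates 1 and 2 in TMM-scaled CPM against coding length in bases (log scale), for genes with a mean of at least 1 CPM (grey) and for the 77 members (blue). Red lines are medians of all genes in 4 length bins, which go from 0.27 in the shortest to -0.20 in the longest; 36 of 9739 genes lie outside the vertical range.

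Many members start next to a gene on the other strand. Of the 77 members, 32 (41.6%) have the start of another gene on the opposite strand within 1000 bases, facing away or overlapping at the start, against 18.8% of 9737 expressed genes. Within 300 bases it is 22 members (28.6%), against 13.6%. The pairs include Mrpl36 with Ndufs6, a subunit of complex I, whose starts overlap by 29 bases. Mrpl32 and the proteasome subunit gene Psma2 start 75 bases apart. Mrpl49 and Fau, which encodes a cytosolic ribosomal protein, start 59 bases apart. Mrpl46 and Mrps11 are both members, and their starts overlap by 412 bases. Mrps12 and Sars2, the gene of mitochondrial seryl-tRNA synthetase, start 172 bases apart, and the sequence shown for Mrps12 fills that space.

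The member was the more abundant gene in 23 of 32 such pairs. The same share for other genes was not computed, and 70 of all 77 members lay above the median of expressed genes. Mrpl46 and Mrps11 are counted from both sides, so both are also among the neighbours. Members in pairs had a median of 119 TPM, and their neighbours a median of 25.4 TPM. The 45 members without such a neighbour had a median of 76.0 TPM. Mrps12 averaged 132 TPM ± 13.1 and Sars2 17.4 TPM ± 0.713 (SD, n = 3 each). Mrpl49, at 119.7 TPM, was lower than Fau at 1926 TPM, and Mrpl32, at 65.9 TPM, was lower than Psma2 at 338 TPM. In replicate 3 the members of the pairs had a median log2 difference of 0.25, against -0.03 for the 30 neighbours at 1 CPM, of which 13 were above 0. The median coding length was 567 bases in those members, against 1611 bases in the neighbours.

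**Figure D5:**
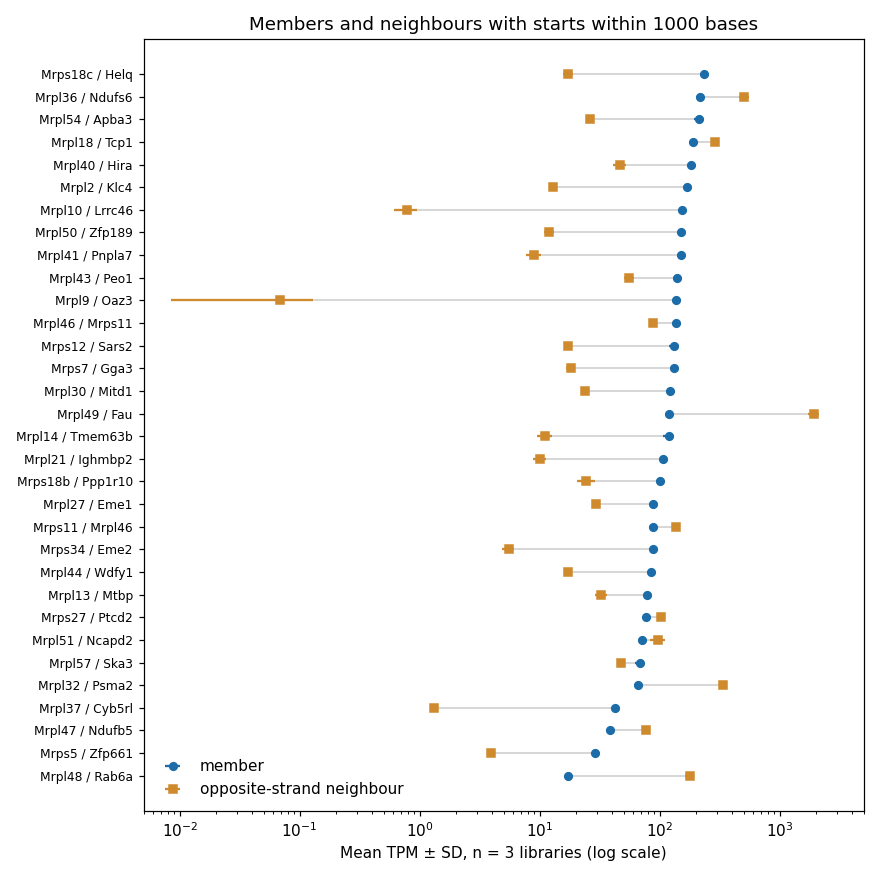
Mean TPM with SD over 3 libraries (log scale) of each member (circle) and of the opposite-strand gene that starts within 1000 bases (square), ordered by the member's level. The member is higher in 23 of 32 pairs, and the Mrpl46 and Mrps11 pair appears from both sides.

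Promoter windows of 300 bases, from 250 before to 50 after the start, were listed in RefSeq for 68 members. The ETS motif CCGGAAG was found on either strand in 35.3% of them, against 21.7% of 7878 expressed genes and 11.7% of all 17449 genes with a window. The Nrf1 motif was found in 19.1% of members, against 12.5% of expressed genes, and AAGATGGC, the motif of Yy1, in 17.6% against 5.59%. The GC box GGGCGG was found in 50% of members, against 66.9% of expressed genes, and the E-box CACGTG in 7.35% against 11.04%. The motif of Zfp143 and Thap11 was found in 7.35% of members against 5.24%, and TATAAA in 5.88% against 6.11%. None of the 7 motifs was found in 10 of the 68 members, and the share of expressed genes without any of them was not computed. The median GC content of the windows was 58.2% in members and 61.3% in expressed genes. These are matches of letters, and binding was not measured.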

How the data were processed

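Polyadenylated RNA of 3 5TGM1.BRE samples was sequenced. Each sample has a deposited table of raw counts for 24467 gene symbols. Reads were handled with bcl2fastq, cutadapt 4.2 and STAR on mm10, per the submitters' processing notes. How reads were counted, with which annotation and strand setting, is not given in the sources used here. Depth is given with the results, and 3 counts, the limit that a count of 0 allows, equal 0.0482, 0.0656 and 0.0505 CPM in replicates 1, 2 and 3, counting error only.

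From the counts, CPM and TPM were computed, with union exon lengths from GENCODE M21 (GRCm38). The annotation held 23688 symbols as spelled, 475 more were found by older names and 304 were not found; all 77 members were found as spelled. Differences between libraries used TMM factors from edgeR 4.0.16 (R 4.3.3), or as an alternative size factors from DESeq2 1.42.0. With 1 group, no contrast could be tested. The chi-square test of homogeneity (Python 3.11.15, SciPy 1.17.1) ran over genes with a summed count of at least 30, with Benjamini-Hochberg adjustment at 0.05. On simulated data for this test over 11517 genes it recovered 56, 78, 80 and 98% of genes changed 1.1-, 1.2-, 1.5- and 2-fold. The simulated counts held Poisson counting noise only, with the change set in replicate 3. These shares therefore do not cover other variation between libraries.

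The members, lists, roles and tests were chosen with earlier results of these data known. Named were the 4 highest and 4 lowest members of each subunit, the Mrps18 genes, Mrps30, Mrps36, Mrpl12, Mrpl45, the 4 largest and 4 smallest differences of replicate 3, proteins under other symbols, and the 3 highest and the lowest gene of each companion list; Mrpl58 is listed as Ict1. Genes named beside the promoters, the pairs, the libraries and the principal transcript were chosen after their values were seen. Trends were removed by loess with a span of 0.3. Sequences and motifs came from RefSeq windows, 1 per gene, and protein sequences were not used here.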

Additional observations from a re-analysis of the deposited data

How the results depend on the processing

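No paired analysis was possible because the 3 libraries form 1 group. The log2 ratio of large over small subunit genes was 0.30 with the longest transcript as length, 0.26 in CPM and 0.14 with medians. That of genes with a bacterial counterpart over genes specific to mitochondria was 0.35, 0.24 and 0.25 under the same settings, and 0.36 with the principal transcript. Members over respiratory subunits gave -0.51 in CPM, -1.75 with medians, -1.20 with a pseudocount of 1, -1.11 with the principal transcript and -1.84 with genes at 1 CPM. Members over cytosolic ribosomal genes gave -4.68 with the longest transcript, -4.04 in CPM and -4.76 with the principal transcript. None of these ratios changed sign. The median member had 84.1 TPM with the longest and 96.6 TPM with the principal transcript. Members varying by chi-square numbered 70, 71 and 6 without replicates 1, 2 and 3, against 56.6, 62.9 and 8.77% of genes tested. The median log2 difference of replicate 3 was 0.085 after removal of a trend on exon length, 0.074 after one on coding length and 0.11 in TPM, and members at least 1.2-fold higher numbered 15, 0 and 0, against 6.42, 3.92 and 2.7% of genes. With a limit of 1.1-fold they numbered 65, against 28.8% of genes. Among named members at least 1.2-fold higher, Mrpl34 changed to -0.056 without the exon length trend and Mrps33 to -0.0027 without the coding length trend. Of the other named members, Mrps21, Mrps36 and Mrps2 changed to -0.071, -0.14 and -0.074 without the exon length trend and to -0.035, -0.15 and -0.096 without the coding length trend. Mrps27 changed to -0.13 without the exon length trend, and Mrpl23 to -0.067 and Mrps5 to -0.013 without the coding length trend. In TPM, Mrps2, Mrps5, Mrps27, Mrps36 and Mrpl23 lay below 0, as did Mrps2 and Mrps5 with library totals, and Mrps2 without replicate 2. Leaving out replicate 1 or 2 gave medians of 0.23 and 0.26, with 28 and 39 members at least 1.2-fold higher, against 10.3 and 14.7% of genes; without replicate 3 no value exists. With library totals as scaling, 22 members were at least 1.2-fold higher and 74 above 0, and genes past that limit were 9.28% higher and 17.5% lower. The principal transcript, the coding length trend, TPM as scaling, genes at 1 CPM and the 300-base limit were chosen after seeing the data. The cause of these changes was not tested. Depth did not limit detection of any member.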
